A study of Canis lupus familiaris with 22 samples.

Results

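The cell cycle and DNA replication genes described here are a list of 44 gene symbols whose products copy DNA or carry a cell through mitosis. A symbol was matched to the probes that carry it as their gene name on the canine array. Of the 44 genes, 38 were matched, by 56 probes, and all 38 were measured, out of 29938 gene names measured in all. A gene counted as measured when at least 1 of its probes had a Cy5 signal well above background on 7 or more arrays. No probe carried the symbols *MKI67*, *CCNB1*, *CENPE*, *KIF20A*, *PRC1* or *HMMR*, so these 6 genes have no value.

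Gene expression was measured in the blood of 15 dogs with 22 arrays. The groups were 8 healthy control dogs (ctrl), 7 dogs with canine atopic dermatitis (cAD), an allergic and itching skin disease, sampled before treatment, and the same 7 dogs after 6 months of allergen-specific immunotherapy (ASIT), in which extracts of the allergens that a dog reacts to are injected under the skin in increasing amounts. The patients were privately owned and the ctrl dogs were blood donors, adult dogs of several breeds. Each array carried the RNA of a dog, labelled with Cy5, against a common reference, labelled with Cy3, which was a pool of RNA from 13 other healthy dogs.

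A cell that divides first doubles its DNA in S phase and then parts the copies in mitosis. Many of the genes that drive these steps are transcribed in a wave before or during the phase that needs them and are low in resting cells. Most leukocytes in the circulation do not divide, so transcripts of these genes in blood are read as a sign of activated lymphocytes, plasmablasts and immature cells that have left the bone marrow.

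Values are log2 ratios of the dog over the common reference, so that 0 is the level of the pool and 1 is a doubling. A difference between groups is the difference of their mean log2 ratios in limma, with p-values adjusted by Benjamini-Hochberg over all 29938 gene names. The comparisons share arrays or dogs: both comparisons with ctrl use the same 8 ctrl arrays, and 0 vs. 6 months uses the same 7 dogs at both times. Which arrays belong to a dog was taken from the source names of the samples, while the titles of the later arrays all name patient 1. Of the 56 probes, 38 were well above background in Cy5 on all 22 arrays, and the fewest arrays for any of them was 7. By group, in the order ctrl, before ASIT, after ASIT, the only probe of *RRM2* was above background on 8, 3 and 2 arrays, 1 of the 2 probes of *NUSAP1* on 8, 1 and 2, and 1 of the 3 probes of *NUF2* on 4, 3 and 0. In bulk RNA of blood, fewer dividing cells and less of a transcript in each cell cannot be told apart.

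The labels call the material whole blood, while the methods speak of peripheral blood nuclear cells. Genes of the erythroid and platelet lineages were present: all 7 measured erythroid genes were well above background on all 22 arrays, as were 4 of the 5 measured platelet genes. The erythroid genes include *KLF1* and *TFRC*, so this list does not tell mature red cells from nucleated cells. Neutrophil genes (8 of 8 measured), monocyte genes (7 of 7) and T cell genes (9 of 9) were also above background on all arrays. The cell cycle genes were therefore measured in a mixture that held erythroid, platelet, granulocyte, monocyte and lymphocyte RNA.

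No cell cycle gene passed the threshold of an adjusted p under 0.05 in any comparison. In 0 vs. ctrl, which asks whether untreated patients differed from healthy dogs, limma called 0 of 38 genes, beside 0.0434% of all gene names. At an unadjusted p under 0.05, 1 gene was higher (*TYMS*) and 0 were lower, while 3.93% of all gene names were higher and 8.55% were lower at that level, 12.5% together. In 6 months vs. ctrl, which compares treated patients with healthy dogs, limma called 0 of 38 genes and 0% of all gene names, and at an unadjusted p under 0.05, 1 gene was higher (*PLK1*) and 0 were lower, beside 4.27% and 2.89% of all gene names, or 7.15% in both directions. In 0 vs. 6 months, which compares the same dogs at both times, limma called 0 of 38 genes and 0% of all gene names, and 0 genes were higher and 2 were lower before ASIT at an unadjusted p under 0.05 (*FOXM1* and *CDC6*), beside 2.20% and 4.32%, or 6.52% in both directions. The methods name a one-way test followed by Tukey's test. Here Tukey's test alone was run for each pair of groups, with Benjamini-Hochberg adjustment within each comparison. It called 0 of 38 genes and 0 of all 29938 gene names in each comparison. With it 0 of 38 had an unadjusted p under 0.05, beside 6.91%, 2.86% and 2.91% of all gene names. The adjusted one-way p-value and the probe filters of the methods were not repeated, so these counts do not stand for the paper's procedure.

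These counts at the unadjusted level moved with single arrays, in both directions. With 1 array left out in turn, the count of higher and lower genes together ran from 0 to 5 in 0 vs. ctrl. It ran from 0 to 6 in 6 months vs. ctrl and from 0 to 6 in 0 vs. 6 months. Without the array of dog 4 before ASIT, 5 genes were lower in 0 vs. ctrl (all gene names in either direction: 13.0%) and 6 in 0 vs. 6 months (6.85%) at an unadjusted p under 0.05. Without that of dog 6 before ASIT, 4 were higher in 0 vs. ctrl (12.5%). Without ctrl dog 1, 4 were higher in 0 vs. ctrl (12.7%) and 3 in 6 months vs. ctrl (8.97%), and without dog 4 after ASIT, 6 were higher in 6 months vs. ctrl (13.0%). In none of these fits was any of the 38 genes called. With the dog as a replicate block, 1 gene was lower in 0 vs. 6 months at an unadjusted p under 0.05, beside 2030 of all 29938 gene names in either direction. With the slide as a random block, 0 genes were at that level in each comparison (all gene names: 2483, 904 and 1362). For no gene did the arrays of a pair of groups lie apart from each other, beside 0.261% of all gene names in 0 vs. ctrl, 0.124% for 6 months vs. ctrl and 0.0134% for 0 vs. 6 months.

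Taken as a list, the genes lay on both sides of 0 in each comparison. In 0 vs. ctrl, 16 of 38 differences were above 0 (all gene names: 47.0%) and their median was -0.069 (all gene names: -0.020), which turned to 0.016 with normexp background correction and loess and to 0.16 with the Cy5 channel alone. In 6 months vs. ctrl, 21 of 38 were above 0 (44.8%) with a median of 0.029 (-0.032), a sign that all 5 other scalings kept. These 5 are not independent, here or below. The ratio of processed signals gave the same medians as the main values, and centring an array on its median shifts all its genes alike. The series matrix differs from the main values on the ctrl arrays only. The scalings that can differ most are normexp with loess and Cy5 alone. In 0 vs. 6 months, 13 of 38 were above 0 (46.8%) with a median of -0.13 (-0.020), which turned to 0.0088 with normexp and loess and to 0.075 with Cy5 alone. The median of the genes on an array had a standard deviation between arrays of 0.20 in ctrl, 0.46 before ASIT and 0.13 after ASIT.

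**Figure D1:**
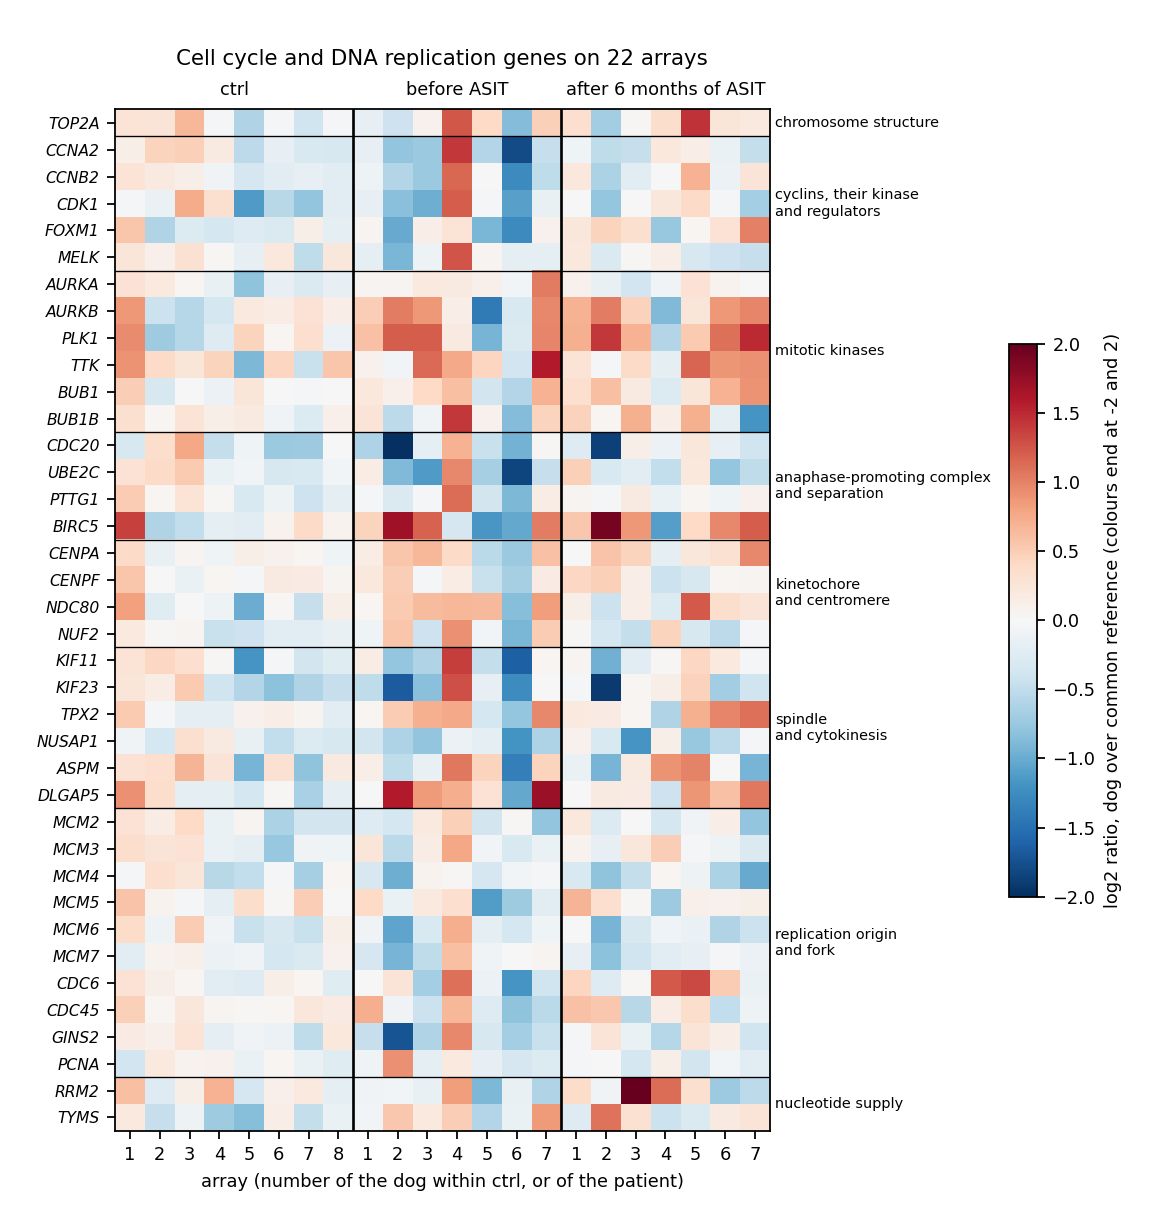
Log2 ratio of each of the 38 measured genes (rows, by role) on each of the 22 arrays (columns, by group), with red for levels above and blue for levels below the common reference and colours that end at -2 and 2. The array of dog 4 before ASIT is red and that of dog 6 blue over most roles, with medians of 0.72 and -0.79.

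*TOP2A*, the enzyme that untangles DNA before the chromosomes part, is a usual marker of dividing cells, as is *MKI67*, which had no probe. Its log2 ratio ran from -0.60 to 0.66 around a median of -0.037 in ctrl, from -0.86 to 1.24 around 0.093 before ASIT and from -0.69 to 1.45 around 0.24 after ASIT. Dog 4 before ASIT and dog 5 after ASIT were the highest arrays, dog 6 before and dog 2 after ASIT the lowest, and the 3 groups overlapped over most of their range. The differences were 0.10 (95% confidence interval -0.48 to 0.69, adjusted p = 0.920) in 0 vs. ctrl, 0.26 (95% confidence interval -0.32 to 0.85, adjusted p = 0.840) in 6 months vs. ctrl and -0.16 (95% confidence interval -0.77 to 0.45, adjusted p = 0.934) in 0 vs. 6 months, and the last turned above 0 with normexp and loess and with Cy5 alone. Without dog 4 before ASIT the first was -0.087.

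Among the cyclins, their kinase and its regulators, all 5 measured genes had a lower mean before ASIT than in ctrl (median difference -0.22), a direction that 3 of the 5 lost with normexp and loess, 2 with Cy5 alone and 1 with the series matrix. *CCNA2* encodes cyclin A2, which acts in S phase and at the entry to mitosis, and its log2 ratio ran from -0.52 to 0.48 around a median of -0.019 in ctrl, from -1.79 to 1.41 around -0.59 before ASIT and from -0.51 to 0.22 around -0.13 after ASIT. The spread before ASIT came from dog 4 at the top and dog 6 at the bottom, while the other 5 patients lay between -0.79 and -0.17, dogs 1 and 7 within the range of ctrl and dogs 2, 3 and 5 below it. The difference in 0 vs. ctrl was -0.44 (95% confidence interval -1.05 to 0.18, adjusted p = 0.599), and it turned above 0 with Cy5 alone. *CCNB2*, a cyclin of mitosis, had medians of -0.11 in ctrl, -0.51 before ASIT and 0.011 after ASIT, and *CDK1*, the kinase that both cyclins activate, had medians of -0.17 in ctrl, -0.17 before ASIT and -0.0077 after ASIT. The difference of *CDK1* in 0 vs. ctrl was -0.068 (adjusted p = 0.956), with a turn above 0 under normexp and loess and under Cy5 alone. *MELK*, a kinase of dividing cells, had medians of 0.16 in ctrl, -0.17 before ASIT and -0.29 after ASIT and a difference of -0.21 in 6 months vs. ctrl (adjusted p = 0.827). That of *CCNB2* in 0 vs. 6 months was -0.33 (adjusted p = 0.903), with a turn above 0 under normexp and loess. Of its 3 probes, 2 were above background on 4 and 2 of 7 arrays before ASIT and gave -0.40 and -0.41, while the probe above it on all arrays gave -0.17.

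*FOXM1*, the transcription factor that switches on many genes of mitosis, had the smallest p-value of the 38 genes in 0 vs. 6 months. Its log2 ratio ran from -0.60 to 0.56 around a median of -0.26 in ctrl, from -1.27 to 0.27 around 0.053 before ASIT and from -0.76 to 1.01 around 0.29 after ASIT. Before ASIT, 4 dogs lay between 0.053 and 0.27 and dogs 2, 5 and 6 between -1.27 and -0.91, while after ASIT only dog 4 was below 0. The difference in 0 vs. 6 months was -0.60 (95% confidence interval -1.16 to -0.051, adjusted p = 0.693), and the level was lower before ASIT in 6 of 7 dogs. With the array of dog 6 before ASIT left out the difference was -0.46, with normexp and loess -0.080, and over all settings tried it stayed below 0 with adjusted p from 0.435 to 1. The 2 probes of *FOXM1* did not vary together (r = -0.257 over 22 arrays), with differences of -0.42 and -0.79 in 0 vs. 6 months but 0.43 and -0.87 in 0 vs. ctrl, where they point in opposite directions. The probe that gave -0.79 and -0.87 was above background on 5 of 7 arrays before ASIT, and the other probe on all 22 arrays.

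All 6 kinases of mitosis had a higher mean than ctrl before ASIT (median difference 0.26) and also after ASIT (0.32), except that *BUB1* and *BUB1B* before ASIT and *AURKA* and *BUB1B* after ASIT turned below 0 with Cy5 alone and *TTK* after ASIT with normexp and loess. *PLK1*, a kinase needed at several steps from the entry into mitosis to the parting of the daughter cells, had log2 ratios from -0.71 to 0.95 around a median of -0.042 in ctrl, from -0.92 to 1.22 around 0.58 before ASIT and from -0.59 to 1.49 around 0.71 after ASIT. After ASIT 6 of 7 arrays were at 0.52 or above and dog 4 was at -0.59, but ctrl dog 1 reached 0.95, so that the groups overlapped. Its difference was 0.41 (95% confidence interval -0.28 to 1.101, adjusted p = 0.674) in 0 vs. ctrl and 0.75 (95% confidence interval 0.056 to 1.44, adjusted p = 0.682) in 6 months vs. ctrl, the largest of the 38 genes in the latter. Taken apart, the channels of *PLK1* differed by 0.059 in Cy5 and -0.35 in Cy3 in 0 vs. ctrl, so that most of the ratio's difference there lay in the reference channel, and by 0.81 and 0.073 in 6 months vs. ctrl. With 1 array left out at a time the difference in 6 months vs. ctrl ran from 0.63 to 0.97, and with normexp and loess it was 0.29.

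*AURKB*, the kinase that corrects faulty attachments of chromosomes to the spindle, had medians of 0.14 in ctrl, 0.49 before ASIT and 0.69 after ASIT. Its differences against ctrl were 0.21 before ASIT (adjusted p = 0.845) and 0.44 after ASIT (adjusted p = 0.746), means of 2 probes that differ, as given below. *AURKA*, which matures the spindle poles, had medians of -0.16 in ctrl, 0.11 before ASIT and -0.0057 after ASIT and a difference of 0.35 in 0 vs. ctrl (adjusted p = 0.407), in which dog 7 stood at 1.03, apart from the other 6 patients at 0.19 or less. The kinases of the spindle checkpoint, which holds a cell until all chromosomes are attached, gave medians of 0.40 in ctrl, 0.43 before ASIT and 0.38 after ASIT for *TTK*. The corresponding medians were -0.0098 in ctrl, 0.20 before ASIT and 0.34 after ASIT for *BUB1*, and 0.11 in ctrl, 0.085 before ASIT and 0.14 after ASIT for *BUB1B*. *BUB1* had the third smallest p-value among the higher genes of 6 months vs. ctrl, at 0.35 (95% confidence interval -0.056 to 0.76, adjusted p = 0.685).

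The anaphase-promoting complex marks cyclins and securin for destruction and so ends mitosis. *UBE2C*, the enzyme that hands ubiquitin to this complex, had log2 ratios from -0.32 to 0.53 around a median of -0.056 in ctrl, from -1.84 to 0.96 around -0.66 before ASIT and from -0.78 to 0.47 around -0.31 after ASIT. Before ASIT 5 of 7 patients were below every ctrl array, with dog 6 the lowest at -1.84, dog 1 lay within the ctrl range and dog 4 lay above it. The difference of -0.59 (95% confidence interval -1.20 to 0.014, adjusted p = 0.414) in 0 vs. ctrl was below 0 in all 5 other scalings, and within 0 vs. 6 months it was -0.32 (adjusted p = 0.909). Over the 4 genes of this role 3 were lower and 1 higher in 0 vs. ctrl, with a median difference of -0.19 that turned to 0.094 with Cy5 alone. *CDC20*, an activator of the complex, had medians of -0.20 in ctrl, -0.44 before ASIT and -0.16 after ASIT, with dog 2 the lowest array at both times (-2.07 and -1.86). *PTTG1*, or securin, which holds back the cleavage of the ties between sister chromatids, had medians of -0.043 in ctrl, -0.019 before ASIT and 0.043 after ASIT and the narrowest spread of the 38 genes after ASIT (SD 0.11, n = 7). *BIRC5*, or survivin, a partner of *AURKB*, had medians of -0.063 in ctrl, 0.44 before ASIT and 0.86 after ASIT and the widest spread in ctrl and before ASIT (SD 0.62, n = 8, and 1.12, n = 7). Its differences against ctrl were 0.21 (adjusted p = 0.887) and 0.64 (adjusted p = 0.724). The former went to -0.026 without dog 2 before ASIT.

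Kinetochore proteins join the chromosomes to the spindle. *NDC80*, which binds the microtubule, had medians of -0.049 in ctrl, 0.64 before ASIT and 0.13 after ASIT and a difference of 0.46 (95% confidence interval -0.10 to 1.02, adjusted p = 0.517) in 0 vs. ctrl, where dog 6 was the lowest patient and the others lay between 0.035 and 0.84. *NUF2*, its partner, had medians of -0.18 in ctrl, -0.050 before ASIT and -0.32 after ASIT and a difference of 0.25 in 0 vs. 6 months (adjusted p = 0.908), which includes a probe above background on 3 of 7 arrays before and 0 of 7 after ASIT. The other 2 probes of *NUF2* gave 0.38 and 0.042. *CENPF* had medians of 0.053 in ctrl, 0.15 before ASIT and 0.056 after ASIT, but its 2 probes, above background on all 8 arrays of ctrl, were so on only 5 and 3 of 7 before and on 3 and 3 of 7 after ASIT. *CENPA*, the histone that marks the centromere, had medians of 0.047 in ctrl, 0.38 before ASIT and 0.30 after ASIT. Over the 4 genes the median difference was 0.16 in 0 vs. ctrl, 0.13 for 6 months vs. ctrl and 0.042 for 0 vs. 6 months, and none of these turned sign under the other 5 scalings.

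The spindle and cytokinesis genes were *KIF11*, *KIF23*, *TPX2*, *NUSAP1*, *ASPM* and *DLGAP5*. *KIF11*, the motor that pushes the spindle poles apart, had medians of -0.0073 in ctrl, -0.47 before ASIT and 0.030 after ASIT, and *TPX2*, which nucleates spindle microtubules, had medians of 0.022 in ctrl, 0.51 before ASIT and 0.20 after ASIT. *DLGAP5*, a protein that steadies spindle fibres, showed the largest difference in 0 vs. ctrl, and its log2 ratio ran from -0.65 to 0.91 around a median of -0.19 in ctrl, from -1.02 to 1.73 around 0.73 before ASIT and from -0.41 to 1.05 around 0.19 after ASIT. Dogs 2 and 7 were the highest patients before ASIT and dog 6 the lowest, below the ctrl range, while dogs 1, 3, 4 and 5 lay within it. The difference was 0.63 (95% confidence interval -0.044 to 1.31, adjusted p = 0.444) in 0 vs. ctrl. *NUSAP1*, which bundles spindle microtubules, was the lower gene with the smallest p-value in 0 vs. ctrl, at -0.41 (95% confidence interval -0.82 to 0.0018, adjusted p = 0.403), and this difference turned above 0 with Cy5 alone. Its medians were -0.22 in ctrl, -0.62 before ASIT and -0.30 after ASIT, and its difference in 6 months vs. ctrl was -0.22 (adjusted p = 0.800). These values average a probe that was above background on 1 of 7 arrays before and 2 of 7 after ASIT with a probe above it on all 22 arrays (r = 0.153), and the latter alone gave -0.37 in 0 vs. ctrl. Over the 6 genes the median difference of -0.11 in 0 vs. ctrl turned to 0.012 with normexp and loess and to 0.48 with Cy5 alone.

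Of the 10 genes of the replication origin and fork, 8 had a lower mean before ASIT than in ctrl (median difference -0.11, which turned to 0.058 with Cy5 alone) and 8 had a lower mean after ASIT than in ctrl (-0.082, with the same sign under all 5 other scalings). *MCM2* to *MCM7* encode the ring-shaped helicase that opens the double helix. *MCM2* had medians of -0.042 in ctrl, -0.26 before ASIT and -0.069 after ASIT, and *MCM5* of 0.046 in ctrl, -0.13 before ASIT and 0.10 after ASIT, with a difference of -0.34 (95% confidence interval -0.80 to 0.11, adjusted p = 0.564) in 0 vs. ctrl. For *MCM5*, dogs 5 and 6 before ASIT stood at -1.11 and -0.71 and the other patients at -0.22 or above. *MCM4*, *MCM6* and *MCM7* were among the 5 lower genes with the smallest p-values in 6 months vs. ctrl, at -0.32 (adjusted p = 0.709), -0.30 (adjusted p = 0.729) and -0.17 (adjusted p = 0.827), all below 0 in the other 5 scalings as well. The medians of *MCM4* were -0.043 in ctrl, -0.055 before ASIT and -0.48 after ASIT, and those of *MCM6* were -0.089 in ctrl, -0.18 before ASIT and -0.32 after ASIT. *GINS2* and *CDC45*, which complete the active helicase, had medians of 0.011 in ctrl, -0.45 before ASIT and -0.026 after ASIT and of 0.11 in ctrl, -0.26 before ASIT and 0.15 after ASIT. The difference of *GINS2* in 0 vs. ctrl was -0.45 (95% confidence interval -0.97 to 0.073, adjusted p = 0.491), and dog 2 before ASIT (-1.73) and dog 4 before ASIT (0.96) were its extremes. Taken apart, the channels of *GINS2* differed there by -0.094 in Cy5 and 0.35 in Cy3, so that most of the ratio's difference lay in the reference channel. The only probe of *GINS2* was above background on 5 of 7 arrays before and 6 of 7 after ASIT. *PCNA*, the sliding clamp of the polymerases, had medians of -0.045 in ctrl, -0.17 before ASIT and -0.061 after ASIT and a difference of 0.14 in 0 vs. 6 months (adjusted p = 0.916), which went to -0.015 without dog 2 before ASIT.

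*CDC6* loads the helicase onto origins before S phase. Its log2 ratio ran from -0.26 to 0.29 around a median of 0.035 in ctrl, from -1.18 to 1.096 around -0.11 before ASIT and from -0.25 to 1.32 around 0.43 after ASIT. The patients spread more widely than ctrl at both times, with dog 4 high at both times, dog 5 high after ASIT and dog 6 low before it, and the ctrl range lay inside that of the patients at each time but for its lower end after ASIT. The mean before ASIT differed from that after ASIT by -0.59 (95% confidence interval -1.18 to -0.0062, adjusted p = 0.752) and was lower in 6 of 7 dogs. This difference rested on the setting: it was -0.038 with normexp and loess, 0.030 with Cy5 alone, 0.098 with the slide as a block, 0.043 within slide 3 and 0.18 within slide 4, the slides that carried patients from both times, and kept its direction within scan day 3 (-0.28, 5 arrays before and 1 after ASIT). The value of slide 4 rested on dog 4 before ASIT (1.096), while dog 3, with both arrays there, was at -0.67 before and 0.030 after ASIT. The 2 probes of *CDC6* had r = 0.0143 over 22 arrays, with differences of -0.94 and -0.24, and they were above background on 5 and on 3 of the 7 arrays after ASIT.

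The remaining pair of genes supplies nucleotides for DNA synthesis. *TYMS*, thymidylate synthase, had the smallest p-value in 0 vs. ctrl, and its log2 ratio ran from -0.85 to 0.20 around a median of -0.30 in ctrl, from -0.58 to 0.85 around 0.20 before ASIT and from -0.42 to 1.09 around 0.19 after ASIT. Dogs 2, 4 and 7 before ASIT were above every ctrl array, dog 3 lay close to the highest of them, and dogs 1, 5 and 6 lay among the rest. The difference was 0.49 (95% confidence interval 0.0038 to 0.97, adjusted p = 0.395) in 0 vs. ctrl and 0.43 (95% confidence interval -0.054 to 0.91, adjusted p = 0.685) in 6 months vs. ctrl, both above 0 under all 5 other scalings. With 1 array left out at a time, the former ran from 0.38 without dog 7 before ASIT to 0.61 without dog 5 before ASIT. The 2 probes of *TYMS* varied together (r = 0.865) and gave 0.68 and 0.30. *RRM2*, a subunit of ribonucleotide reductase, had medians of 0.11 in ctrl, -0.15 before ASIT and 0.32 after ASIT and a difference of -0.52 (95% confidence interval -1.21 to 0.17, adjusted p = 0.874) in 0 vs. 6 months, which turned above 0 with Cy5 alone and in which dog 3 after ASIT stood at 2.09.

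**Figure D2:**
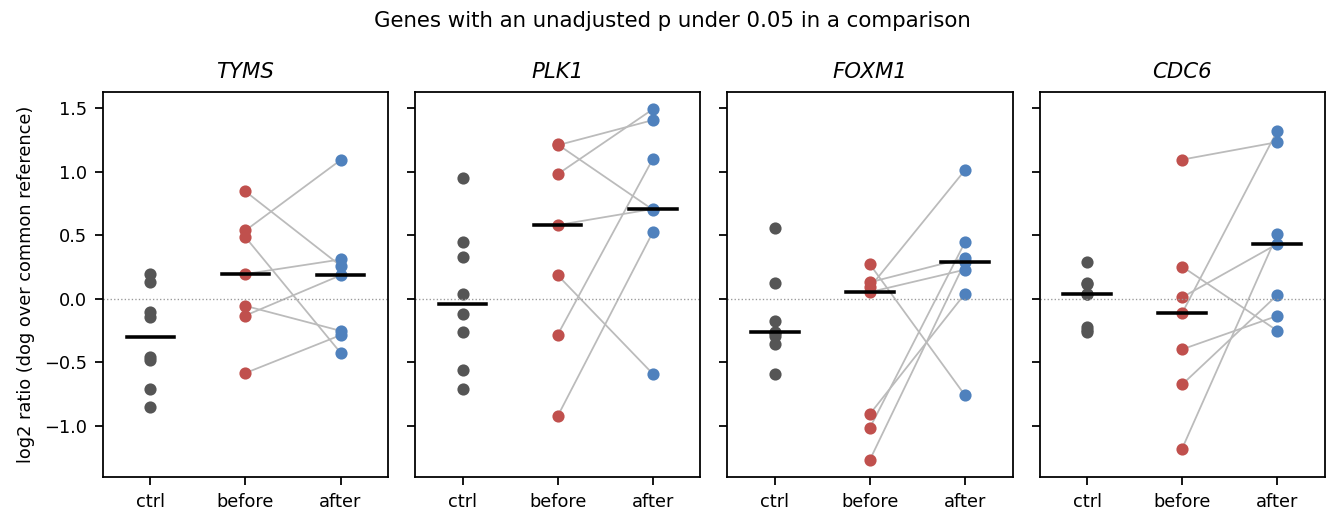
Log2 ratio over the common reference of the 4 genes with an unadjusted p under 0.05 in a comparison, on each array by group, with a bar at the group median and lines that join the arrays of a dog before and after 6 months of ASIT. The groups overlap for every gene, *TYMS* having medians of -0.30 in ctrl, 0.20 before ASIT and 0.19 after ASIT.

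The arrays of dogs 4 and 6 before ASIT bounded the range of the genes. The median of the 38 genes on an array ran from -0.29 to 0.29 in ctrl, from -0.79 to 0.72 before ASIT and from -0.15 to 0.24 after ASIT. Before ASIT dog 4 was the highest patient for 22 of 38 genes (over all gene names: 15.4%), and dog 6 was the lowest for 23 of 38 (over all gene names: 10.8%). After ASIT the same dogs had array medians of -0.099 and 0.020, close to each other. In ctrl, dog 1 was the highest for 21 of 38 genes (over all gene names: 21.96%). Among patients before ASIT, dog 6 also had the highest mean log2 ratio of eosinophil and basophil genes (1.77, next 0.26) and of monocyte genes (0.51, next 0.39). Its mean of B cell genes was the highest too (0.58, next 0.55). Dog 4 had the lowest mean of platelet genes (-0.97, next -0.61) and of eosinophil and basophil genes (-0.20, next 0.021). It had the highest mean of plasma cell genes (0.069, next -0.13). The part of these cells in the values of the 2 arrays was not tested.

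Before ASIT the genes spread more between arrays than in ctrl. The SD was larger before ASIT than in ctrl for 37 of 38 genes, beside 81.2% of all gene names, larger before than after ASIT for 34 of 38, beside 63.4%, and larger after ASIT than in ctrl for 27 of 38, beside 73.1%. The median SD of the 38 genes was 0.35 in ctrl, 0.65 before ASIT and 0.44 after ASIT, beside 0.29, 0.52 and 0.44 over all gene names. By the group medians, dim spots were more frequent on the arrays of patients than on those of ctrl, and the part of this in the spread was not tested. The ctrl arrays lay on slides 1 and 2 and scan day 1, those before ASIT on slides 3 to 5 and scan days 2 and 3. Spread between dogs thus cannot be told apart from spread between slides and scan days.

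Within dogs the direction was mixed. The median of before minus after ASIT over the 38 genes was 0.88 in dog 4, with 34 of 38 genes higher before ASIT, and -0.81 in dog 6 and -0.61 in dog 5, with 33 of 38 lower in each. It was -0.16 in dog 1, where 31 of 38 were lower, -0.092 in dog 2, -0.031 in dog 3 and 0.069 in dog 7. Over all gene names these medians lay between -0.088 and 0.027. Dogs 1, 2 and 3 had both arrays on 1 slide, while those of dogs 4 to 7 lay on different slides, and the 3 dogs that differed most were all among the latter. The group median of -0.13 in 0 vs. 6 months was -0.12 within slide 3 (dogs 1 and 2 at both times), 0.33 within slide 4 (dogs 3 and 4 before and dog 3 after ASIT), -0.088 within scan day 3 (5 arrays before and 1 after ASIT) and 0.056 with the slide as a fixed block. Without dog 4 before ASIT it was -0.24, and without dog 6 before ASIT it was 0.016. In 0 vs. ctrl the median turned above 0 without dog 6 (0.059), without dog 2 (0.021) and without ctrl dog 3 (0.0058), and was -0.20 without dog 4. In 6 months vs. ctrl it turned below 0 without ctrl dog 5 (-0.021) and without ctrl dog 7 (-0.018), and was 0.13 without dog 2 after ASIT. All 8 ctrl arrays lay on slides 1 and 2 and were scanned on a day of their own, so that slide, scan day and group cannot be told apart in the comparisons with ctrl.

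**Figure D3:**
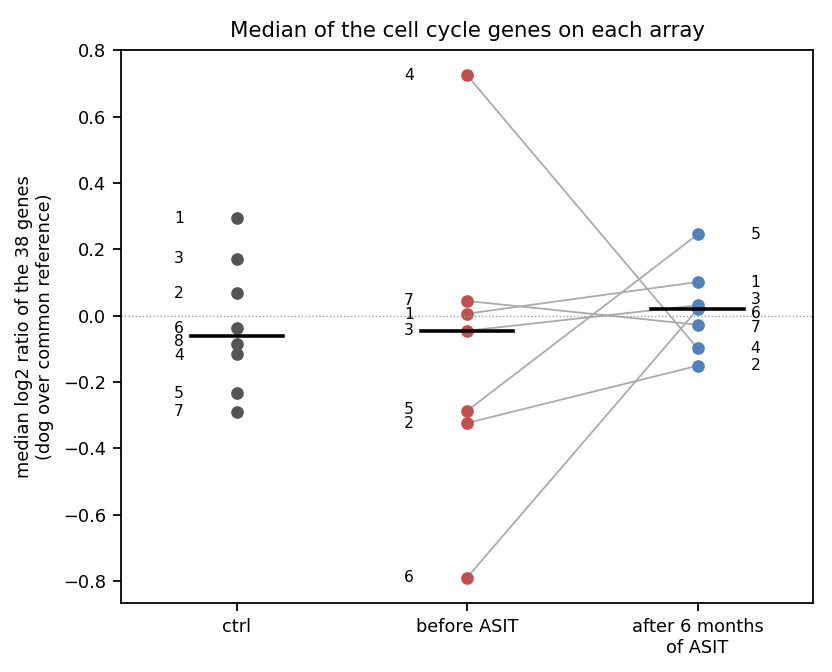
Median log2 ratio over the common reference of the 38 genes on each of the 22 arrays, by group and labelled with the number of the dog, with a bar at the group median and lines that join the arrays of each patient. Dog 4 at 0.72 and dog 6 at -0.79 bound the patients before ASIT, and the medians after ASIT lie between -0.15 and 0.24.

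The 38 genes did not vary as a single block. Of the 703 pairs, 211 had a correlation above 0.5 over the 22 arrays and 169 were below 0. These correlations are descriptions: the 22 arrays come from 15 dogs, 7 of them present at both times, and share the reference pool. One set of genes followed the high value of dog 4 and the low value of dog 6 before ASIT, as *CCNA2* did with *KIF11* (r = 0.905), *CCNB2* (r = 0.870), *UBE2C* (r = 0.860) and *CDK1* (r = 0.829). In another set *PLK1* varied with *AURKB* (r = 0.959), *BIRC5* (r = 0.936), *CENPA* (r = 0.849) and *BUB1* (r = 0.831). *CCNA2* and *PLK1* themselves had r = -0.235. *AURKB*, *PLK1* and *BIRC5* were high in ctrl dog 1, in dogs 2, 3 and 7 before ASIT and in dogs 2, 6 and 7 after ASIT, with dog 2 after ASIT the highest array for *AURKB* (1.02) and *BIRC5* (1.92) and dog 7 after ASIT for *PLK1* (1.49), and low in ctrl dogs 2 and 3, in dog 5 before ASIT and in dog 4 after ASIT.

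The second set varied with the erythroid genes. Of the 10 genes of the erythroid list, 7 were measured, *AHSP* being the brightest, and *HBB*, *HBA1* and *HBM* had no probe under these symbols. Their mean log2 ratio ran from -1.17 to 1.12 around a median of -0.14 in ctrl, from -1.13 to 1.05 around 0.57 before ASIT and from -0.67 to 1.35 around 0.73 after ASIT. Their summed Cy5 intensity ran from 17988 (dog 2) to 145760 (dog 1) in ctrl, from 20620 (dog 5) to 136090 (dog 2) before ASIT and from 36363 (dog 5) to 203580 (dog 2) after ASIT. Over the 22 arrays the erythroid mean had r = 0.931 with *AURKB*, 0.917 with *PLK1*, 0.904 with *BIRC5*, 0.755 with *BUB1*, 0.748 with *TYMS* and 0.739 with *CENPA*. Over the 15 ctrl and untreated arrays, each of a different dog, the value for *PLK1* was 0.907 and that for *TYMS* 0.726, and without the 2 arrays farthest from the median erythroid value they were 0.884 and 0.719 over the remaining arrays of the 22. Over the 38 genes, r with the erythroid mean ran from -0.480 (*MCM7*) to 0.931 (*AURKB*), with *CCNA2* (-0.256) and *CDK1* (-0.348) also below 0. The median difference of the erythroid genes was 0.33 in 0 vs. ctrl and 0.54 in 6 months vs. ctrl, with 0 of 7 called by limma in either and 0 and 1 at an unadjusted p under 0.05 (all gene names: 12.5% and 7.15%). The part of erythroid RNA in the differences of *PLK1*, *AURKB*, *BIRC5* and *TYMS* against ctrl was not tested.

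**Figure D4:**
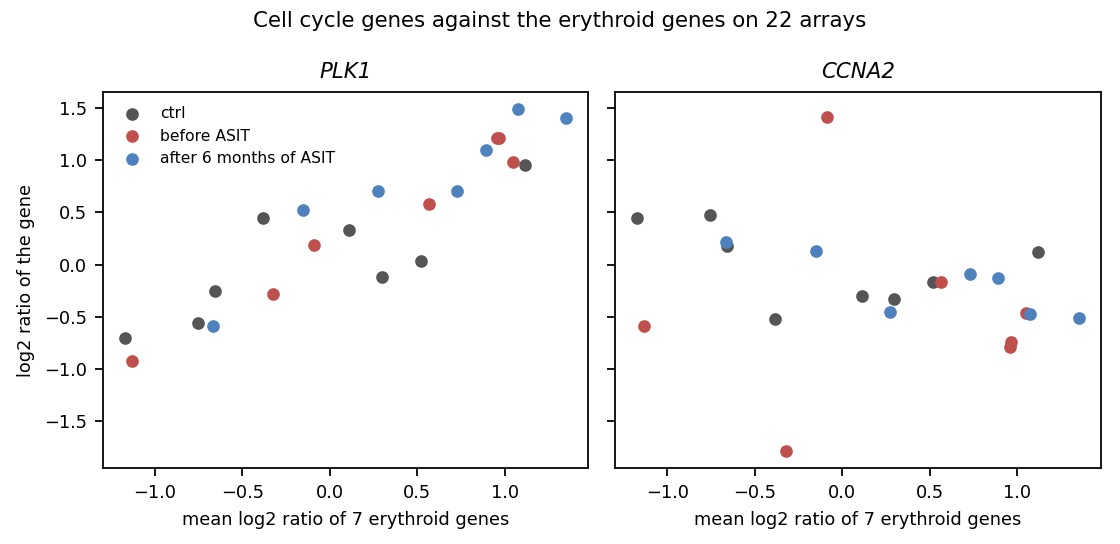
Log2 ratio of *PLK1* and of *CCNA2* over the common reference (vertical axes) against the mean log2 ratio of the 7 measured erythroid genes (horizontal axes) on the 22 arrays, coloured by group. *PLK1* varies with the erythroid genes over the arrays of all 3 groups (r = 0.917), and *CCNA2* does not (r = -0.256).

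Other cell type lists were set beside the genes in the same way. With the mean of the 7 monocyte genes, all measured and *LYZ* the brightest, *BUB1* had r = -0.779, *TPX2* -0.770, *AURKB* -0.759 and *PLK1* -0.702, and the highest of the 38 genes was *MCM2* at 0.352. The summed Cy5 intensity of the monocyte genes was 73176 to 130510 in ctrl, 61821 to 167070 before ASIT and 44300 to 166120 after ASIT. With the mean of the plasma cell genes, of which 5 of 9 were measured, *XBP1* the brightest and *JCHAIN*, *MZB1*, *TNFRSF17* and *POU2AF1* without a probe, *CCNA2* had r = 0.686, *UBE2C* 0.675 and *CDK1* 0.664, and the lowest of the 38 genes was *PLK1* at -0.45. The summed Cy5 intensity of the plasma cell genes was 1735 to 2955 in ctrl, 1881 to 3102 before ASIT and 1220 to 3152 after ASIT, and their median difference in 0 vs. ctrl was -0.39, with 0 of 5 called by limma and 2 lower at an unadjusted p under 0.05 (all gene names: 0.0434% called and 8.55% lower at that level). The neutrophil precursor granule genes, of which 6 of 10 were measured with *LTF* the brightest and *PRTN3*, *AZU1*, *DEFA1* and *CEACAM8* without a probe, had r from -0.668 (*UBE2C*) to 0.367 (*PLK1*) with the 38 genes. Their summed Cy5 intensity was 4014 to 6972 in ctrl, 4448 to 12428 before ASIT and 5697 to 13197 after ASIT. The correlations with the other lists ran from -0.618 (*MCM7*) to 0.624 (*PCNA*) for neutrophil genes, from -0.460 (*CDC6*) to 0.554 (*MCM4*) for T cell genes and from -0.618 (*RRM2*) to 0.478 (*MCM7*) for B cell genes. They ran from -0.671 (*CDC45*) to 0.122 (*MCM2*) for eosinophil and basophil genes, from -0.290 (*PLK1*) to 0.451 (*MELK*) for cytotoxic genes and from -0.366 (*MELK*) to 0.183 (*MCM5*) for platelet genes. The median correlation over the 38 genes was 0.349 with the plasma cell list and lay between -0.239 and 0.00340 with the other 9 lists, -0.0981 with the erythroid and -0.0774 with the monocyte list among them. In no list was any gene called by limma in any comparison, and at an unadjusted p under 0.05 the counts besides those given were 2 lower of 5 platelet genes in 0 vs. ctrl (all gene names: 8.55% lower), and in 6 months vs. ctrl 1 higher of 6 granule genes, 2 higher of 6 eosinophil and basophil genes and 1 lower of 5 cytotoxic genes (all gene names: 4.27% higher and 2.89% lower). In all, 380 such correlations of a gene with a list were computed, and the part of these cell types in the values of the genes was not tested.

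Where a gene had several probes, these often differed. Of the 16 genes with more than 1 probe, the probes pointed in opposite directions for 6 genes in 0 vs. ctrl, for 9 in 6 months vs. ctrl and for 2 in 0 vs. 6 months. *MCM6* (r = 0.879), *TYMS* and *TPX2* (r = 0.727) had probes that varied together over the 22 arrays. So did *MCM7* (r = 0.986), whose 2 probes overlap by 56 of 60 bases and are close to a single measurement. The 2 probes of *AURKB* had r = 0.809 but gave -0.037 and 0.46 in 0 vs. ctrl, on opposite sides of 0, and 0.10 and 0.79 in 6 months vs. ctrl. *CENPF* (r = -0.318), *AURKA* (r = -0.0175), *MCM3* (r = -0.0119), *FOXM1* and *CDC6* had probes that did not vary together. For *MCM3*, 1 of the 2 probes was above background on 8 arrays in ctrl, 3 before and 2 after ASIT. The probes of *TOP2A* (r = 0.320) gave 0.55 and -0.34 in 0 vs. ctrl.

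The 60-base probes below read the genes with the smallest p-values and *UBE2C*, and show which stretch of each transcript a value belongs to. They are given 5′ to 3′ with positions of the files on canFam3.1. The probe of *TYMS* lies at chr7:67497231-67497290 on the plus strand and that of *CDC6* at chr9:22304277-22304336 on the minus strand, and in both the capitals mark the stop codon that ends the coding sequence. The probe of *FOXM1* lies at chr27:41904544-41904603 on the plus strand. Those of *PLK1* (chr6:22165785-22166098, minus strand) and *UBE2C* (chr24:33131653-33132010, plus strand) span 314 and 358 bases of the genome with 60 bases of probe and so cross a junction between exons, which spliced RNA has and genomic DNA has not. No annotation of canFam3.1 was used here.
*TYMS*: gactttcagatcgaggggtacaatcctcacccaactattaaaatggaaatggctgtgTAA
*PLK1*: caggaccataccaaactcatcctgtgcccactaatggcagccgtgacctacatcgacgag
*FOXM1*: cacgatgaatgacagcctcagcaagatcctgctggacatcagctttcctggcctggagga
*CDC6*: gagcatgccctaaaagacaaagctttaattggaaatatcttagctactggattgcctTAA
*UBE2C*: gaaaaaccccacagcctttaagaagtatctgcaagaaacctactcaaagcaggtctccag
The *TYMS* probe shown gave 0.30 in 0 vs. ctrl, that of *PLK1* 0.75 in 6 months vs. ctrl, and those of *FOXM1* and *CDC6* -0.42 and -0.24 in 0 vs. 6 months. The *CDC6* probe was well above background in Cy5 on 8 of 8 ctrl arrays, 4 of 7 before and 3 of 7 after ASIT, and the other 4 probes on all 22 arrays.

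A wider list of 103 other cell cycle genes, from the cyclins of the G1 phase to condensins and replication factors, had 94 measured. Limma called 0 of 94 in each comparison, and at an unadjusted p under 0.05, 2 were higher and 5 lower in 0 vs. ctrl, 1 higher and 2 lower in 6 months vs. ctrl, and 1 higher and 1 lower in 0 vs. 6 months, beside 12.5%, 7.15% and 6.52% of all gene names in either direction. Tukey's test called 0 of all 29938 gene names. The median difference was 0.0073 in 0 vs. ctrl, -0.032 in 6 months vs. ctrl (which turned to 0.030 with Cy5 alone) and 0.012 in 0 vs. 6 months. *CDT1*, which loads the helicase together with *CDC6* and was named after its values were seen, had the smallest p-value of the list, and its log2 ratio ran from -0.016 to 0.48 around a median of 0.15 in ctrl, from -0.45 to -0.086 around -0.16 before ASIT and from -0.34 to 0.070 around -0.16 after ASIT. All 7 arrays before ASIT lay below all 8 of ctrl, beside 0.261% of all gene names whose groups lay apart in either direction, and the difference was -0.42 (95% confidence interval -0.65 to -0.18, adjusted p = 0.131). By the array medians of the wider list, dog 4 was the highest patient before ASIT (0.39), as for the 38 genes, while the lowest was dog 2 (-0.28), with dog 6 at -0.15. By the array means the lowest was dog 6 (-0.29), close to dog 2 (-0.26).

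The channels taken alone gave other counts than the ratio. With the Cy5 channel alone, limma called 6 of 38 genes in 0 vs. ctrl, *ASPM*, *CDC45*, *DLGAP5*, *MCM2*, *NDC80* and *TTK*, beside 22.6% of all gene names. Of the 6 genes, 5 were higher and 1 was lower. Limma called 0 of 38 in 6 months vs. ctrl (all gene names: 16.4%) and in 0 vs. 6 months (0%), with 8 genes (all gene names: 33.1%) and 0 genes (7.28%) at an unadjusted p under 0.05. Cy3 held the same reference RNA on every array, yet limma called 18 of 38 genes in Cy3 in 0 vs. ctrl (all gene names: 47.1%) and 15 of 38 in 6 months vs. ctrl (44.3%), and 0 of 38 in 0 vs. 6 months (0.0100%), where 8 had an unadjusted p under 0.05 (all gene names: 18.7%). All 6 genes called in Cy5 were called in Cy3 in the same direction. The difference of *ASPM* was 1.26 in Cy5 and 1.30 in Cy3, that of *MCM2* 0.64 in Cy5 and 0.70 in Cy3, that of *DLGAP5* 0.90 in Cy5 and 0.29 in Cy3 and that of *NDC80* 0.90 in Cy5 and 0.42 in Cy3. The part of the reference channel in the calls of Cy5 alone was not tested, and the ratios, which set both channels of a spot against each other, are the values used above. The Cy3 channel was examined after the data had been seen.

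Precision is limited by the number of arrays. For single genes of the list, the median standard error of a difference was 0.26 in 0 vs. ctrl and 0.26 in 0 vs. 6 months. Each array is a dog at 1 time, and p-values are set against the spread between arrays. The 3 groups share 1 estimate of that spread per gene, so each comparison also draws on the third group. The fit thus treats both arrays of a patient as independent, and 0 vs. 6 months was fitted without the pairing of its arrays. It also takes the groups as equally spread, although the median SD of the genes was 0.35, 0.65 and 0.44.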

How the data were processed

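The authors extracted each array with Agilent Feature Extraction, which subtracted the background and applied Lowess normalization. Its version is 10.7.3.1 per the submitters' processing notes and 10.10.1.1 per the file headers. The deposited scanner files hold the raw and processed intensity of both channels and the log10 ratio of Cy5 over Cy3, with a ratio of 0 set for some spots that were dim in both channels. The deposited series matrix holds such log10 ratios too. They equal those of the scanner files on the 14 arrays of patients and correlate with them by r = 0.711 to 0.844 on the 8 of ctrl, for a reason that was not found.

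Log10 ratios were converted to log2. Control spots and 208 outlier spots were left out, spots of a probe were averaged, and probes with Cy5 well above background on 7 or more arrays were averaged per gene name, whatever their agreement. The 3 groups were fitted with limma 3.58.1 (R 4.3.3, data.table package 1.17.8) in 1 model without a block, since the methods name none, with Benjamini-Hochberg adjustment over 29938 gene names. The script was tested on simulated data. Tables and figures were made with Python 3.11.15, pandas 2.3.3, numpy 2.4.6, scipy 1.17.1 and matplotlib 3.10.9. Which arrays are of the same dog was taken from the source names, which number the dogs at both times. The titles disagree: those of all 7 later arrays name patient 1, followed by a count from 1 to 7. As a check, the deviations of a dog's arrays from the group means correlated by r = -0.0422 to 0.556, and 4 of 7 dogs correlated best with their own second array. The dog as a block is among the alternatives.

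Genes named by rule are 27 set by symbol, of which 25 were measured, and the 5 with the smallest p-value in each direction of each comparison. Further genes of the list are named where a role, a channel or the agreement of probes is described. *CDT1* was added after its values were seen. The lists of erythroid, monocyte, neutrophil, neutrophil precursor granule, T cell, B cell, plasma cell, cytotoxic, eosinophil and basophil, and platelet genes are described by counts, medians and correlations, with no test of a list. The members and lists were chosen with earlier results of these data known. Motifs in promoters were not analysed here.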

Additional observations from a re-analysis of the deposited data

Results flagged for a closer look

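In 7 of the 117 sets of a gene or of the median of the genes in a group, 1 array lay far from the others of its group, where chance gives about 1 in 20. Ctrl dog 1 was far above the other ctrl dogs for *CENPF* (0.56, with the next at 0.18) and for *CDC45* (0.48, next 0.23). Before ASIT, dog 7 was far above the other patients for *AURKA* (1.03, next 0.19), and dog 2 was far below them for *MCM4* (-0.98, next -0.34) and above them for *PCNA* (0.91, next 0.20). After ASIT, dog 4 was far below the others for *AURKB* (-0.88, next 0.24) and dog 2 for *CDC20* (-1.86, next -0.40).

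The Cy3 channel, which enters the comparisons only within the ratio and held the same reference RNA on every array, differed between the patients' arrays and those of ctrl for 18 of 38 genes in 0 vs. ctrl (all gene names: 47.1%) and for 15 of 38 in 6 months vs. ctrl (all gene names: 44.3%) at an adjusted p under 0.05 in limma. Slide and scan day cannot be told apart from the group there.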

How the results depend on the processing

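The count of genes called at an adjusted p under 0.05 was 0 in each comparison that an alternative was run for, except that the Cy5 channel alone called 6 of 38 in 0 vs. ctrl, beside 22.6% of all gene names. The reference channel, which holds no RNA of these dogs and is not counted as an alternative, was called in that comparison in the same direction for all 6. *MCM2* was called in Cy5 at 0.64, against -0.076 for the ratio. With 1 array left out in turn the count stayed at 0, and the median difference of the genes ran from -0.20 to 0.059 in 0 vs. ctrl, from -0.021 to 0.13 in 6 months vs. ctrl and from -0.24 to 0.016 in 0 vs. 6 months. With the dog as a replicate block, the count in 0 vs. 6 months was 0 and the median -0.13, so that the pairing changed no call. For dogs 1 to 3 alone, with the dog as a replicate block, they were 0 and -0.12. The alternatives with a dog block or a fixed slide block were run for 0 vs. 6 months only. The median over the 38 genes changed sign under several alternatives. Without dogs 1 and 2, an alternative chosen after seeing the data because 3 of their 4 arrays had more spots above background in Cy5 than any other array of patients, the medians were 0.019, 0.13 and -0.11, with 0 genes called, while the number of all gene names called in 0 vs. ctrl went from 13 to 1491. With 1 array left out that number ran from 0 to 437 (without dog 1 before ASIT). The strict filter kept 30 of the 38 genes and the filter in each group 31. With either filter, 0 of the genes kept had an unadjusted p under 0.05 in limma in 0 vs. 6 months (all gene names kept: 333 of 15107 and 364 of 15825).

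For the 34 genes named by the rule, the alternatives other than leaving out an array were counted by the threshold and the spread between arrays. The side of the threshold was kept and the value stayed within the spread in 381 of 396 values in 0 vs. ctrl. The counts were 391 of 396 in 6 months vs. ctrl and 492 of 498 in 0 vs. 6 months. The sign differed in 34, 28 and 38. These counts do not show that differences were stable, since the spread is large beside most differences. The median SD of the 38 genes was 0.35 in ctrl, 0.65 before ASIT and 0.44 after ASIT. Their differences in 0 vs. ctrl ran from -0.59 to 0.63. That of *FOXM1* in 0 vs. 6 months was -0.60, and -0.080 with normexp and loess. Genes above background on few arrays, such as *RRM2*, are limited by the signal. The causes were not tested.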
